A study of Mus musculus with 24 samples.

Results

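The change in RNA levels that the HDAC3 inhibitor BRD3308 gave in P199L-ERG cells was set against the change it gave in cells with the empty vector, as an interaction contrast: the BRD3308-over-DMSO ratio in P199L-ERG cells over the same ratio in BB cells. The rule took all 4 replicate libraries of each of 4 groups, 16 of the 24 libraries of the series, and every gene that passed a filter on low counts, which left 12963 of 53801 genes. The groups were P199L-ERG with BRD3308, P199L-ERG with DMSO, BB (the empty lentiviral vector) with BRD3308 and BB with DMSO. All were C57BL/6 ER-Hoxb8 cells, murine myeloid progenitors immortalised by an estrogen-regulated Hoxb8 that was switched off in every group by washing out beta-estradiol, and all received 5 µM BRD3308 or the solvent DMSO for 36 hours (dose and time from the RNA sequencing methods; other passages of the paper give another dose and another time, and the labels give neither, so both are uncertain). P199L-ERG is the ETS factor ERG with a leucine in place of a proline, delivered as a stable transgene. The tests came from a single fit of all 24 libraries. Those of cells with unmutated ERG (WT-ERG) thus entered the filter, the scaling and the estimate of spread. The 4 libraries of a group came from independent experiments, but whether each came from a separate transduction was not stated, so a difference between constructs and one between transduced lines cannot be told apart.

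HDAC3 is the catalytic subunit of the NCoR and SMRT co-repressor complexes, which transcription factors bring to chromatin, where removal of acetyl groups from histones goes with low transcription. ERG, a member of the ETS family, acts in blood stem cells and the megakaryocyte and endothelial lineages, both as an activator and as a repressor. On loss of Hoxb8 activity ER-Hoxb8 progenitors leave self-renewal and mature along the neutrophil path.

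The 16 libraries held 12802587 to 15864492 counts, and values are given as CPM, a gene's counts scaled by the library's total and its TMM factor. The 9 granulocyte-monocyte progenitor markers were detected in every library. They summed to 26632 to 28062 CPM with BRD3308 and 28446 to 31624 CPM with DMSO in P199L-ERG cells. In BB cells these sums were 23404 to 25144 and 26321 to 26876 CPM. *Mpo* was the largest part (12314 to 18930 CPM), with *Kit* at 257 to 295 and *Cd34* at 56.1 to 176 CPM. The sums do not by themselves tell the stage of the cells. The 4 T and NK markers summed to at most 0.660 CPM in any library, and 3 of the 5 erythroid markers had no read. Markers of other myeloid cells moved with the groups. The 5 mast cell and basophil markers summed to 101 to 109 CPM with BRD3308 and 215 to 261 CPM with DMSO in P199L-ERG cells, against 56.1 to 64.4 and 117 to 130.0 CPM in BB cells. The sums of the 4 mature neutrophil markers were 88.2 to 102 and 36.7 to 43.6 CPM in P199L-ERG cells, against 66.8 to 82.8 and 29.3 to 33.7 CPM in BB cells. These sums were mostly *Cxcr2* (28.0 to 98.4 CPM), while *Ly6g*, *Retnlg* and *Mmp9* stayed at or below 3.32 CPM in all libraries compared. The sums of the 5 megakaryocyte markers were 39.5 to 43.5 and 44.7 to 47.8 CPM, against 38.5 to 46.3 and 24.1 to 28.1 CPM. None of the tested members of these lists was called for a difference in response, and the part of these cells in the results was not tested. Principal components separated treatment (PC1, 50.2% of the variance) and construct (PC2, 19.7%). Libraries of a group also differed by gene length: P199L-ERG DMSO replicate 4 had more counts on short genes, with a correlation of its deviation from the group mean with exon length of -0.44, while replicates 1 and 2 of that group went the other way (0.43 and 0.33). In the same fit, WT-ERG DMSO replicate 4 had -0.47.

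Few genes responded to BRD3308 to a detectably different degree in the constructs. With BRD3308, 3167 genes rose and 3120 fell in P199L-ERG cells, 48.5% in all, against 3105 that rose and 2849 that fell in BB cells, 45.9% in all (edgeR quasi-likelihood test, adjusted p below 0.05). Across the 12963 genes, the log2 responses had a correlation of 0.868, which describes genes, not replicates, and rests on groups that share no library. The difference in response itself passed the test for 136 genes, 1.05% of those tested. The response was higher in P199L-ERG cells for 59 genes (0.455%) and lower for 77 (0.594%), and 1656 genes had an unadjusted p below 0.05. The median size of the difference among the 136 was 0.46 log2, and only 5 higher and 6 lower differences were beyond 1 log2. The count of 136 fell to 79 without BB DMSO replicate 3 (34 higher, 45 lower) and to 89 without P199L-ERG BRD3308 replicate 4 (36 higher among them). It was 300 without a filter on low counts. The 16 libraries fitted alone, without WT-ERG, gave 96, and a trend on gene length removed within groups gave 368, both alternatives chosen after the data were seen.

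**Figure D1:**
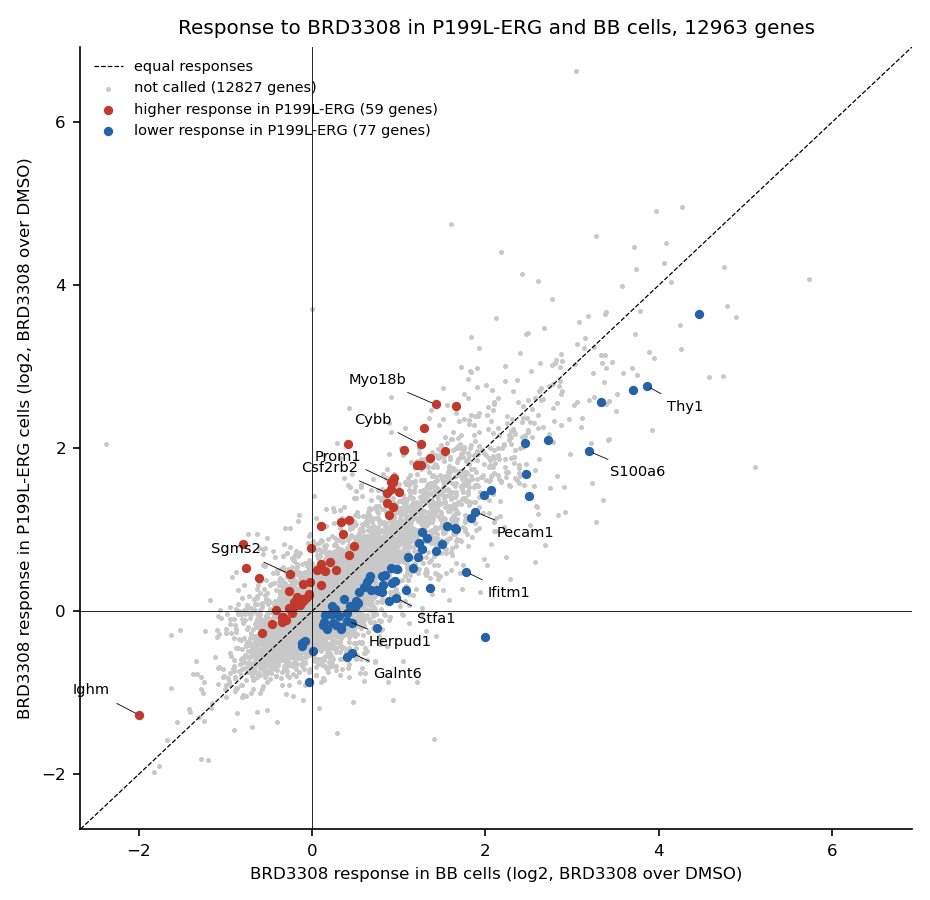
Log2 BRD3308-over-DMSO response of 12963 genes in P199L-ERG cells (vertical axis) and BB cells (horizontal axis); the dashed line marks equal responses. The 59 genes with a higher response in P199L-ERG cells (red) lie above the line, the 77 with a lower response (blue) below it, and most of both rose with BRD3308 in at least 1 construct.

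The 136 genes were sorted by whether each response alone passed the test. Of the 77 with a lower response in P199L-ERG cells, 45 rose in both constructs and rose less in P199L-ERG cells, 19 rose in BB cells and were not called in P199L-ERG cells, and 7 fell in P199L-ERG cells while they rose in BB cells. Another 5 fell in P199L-ERG cells with no call in BB cells, and 1 fell in both. Of the 59 with a higher response in P199L-ERG cells, 27 rose in both and rose more in P199L-ERG cells, 10 rose in P199L-ERG cells with no call in BB cells, and 9 rose in P199L-ERG cells while they fell in BB cells. For 8 only the fall in BB cells passed, and 5 fell in both but less in P199L-ERG cells. A ratio and a gain in CPM are different quantities, and they did not always point the same way: the gain in mean CPM with BRD3308 minus that in BB cells had the sign of the log2 difference for 68 of the 77 lower and 43 of the 59 higher genes. Named exceptions among the higher genes, with a smaller gain in P199L-ERG cells, were *Cybb*, *Thbs1*, *Mpeg1*, *F13a1*, *Adgre1*, *Myo18b*, *Mgst1*, *Pld1*, *Acpp*, *Prom1* and *Gm29233*. Those among the lower genes, with a larger gain there, were *Ccr2*, *Thy1*, *S100a6*, *BC100530*, *Itgb7* and *Adam8*. The differences in gain were not tested.

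Gene length moved with the result. The exons of the 59 genes with a higher response had a median total length of 7142 bp, those of the 77 with a lower response 3092 bp, and those of the genes not called 4013 bp. Across 12950 genes with a length, Spearman's correlation between length and the difference in response was 0.29, and 0.17 without P199L-ERG DMSO replicate 4. When a smooth trend on length was removed from every library, 130 genes were called, 105 of them among the 136, with 49 higher and 81 lower. The calls of *Cacna2d2*, *Rtn4r*, *Il2rg*, *Serpinf1* and *Ssr3* ended, and *Nin* lost its call under no other alternative (0.11, adjusted p = 0.347).

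*Ifitm1*, *S100a6* and *Thy1* had the most negative differences among the named genes. *Ifitm1* (ENSMUSG00000025491, chromosome 7, 140967221 to 140969825, plus strand) and *Ifitm3* encode membrane proteins that restrict the entry of viruses. *Ifitm1* had 279, 289, 289 and 281 CPM in the BRD3308-treated P199L-ERG libraries and 185, 204, 206 and 221 CPM with DMSO, against 163, 175, 170.0 and 194 CPM in the BRD3308-treated BB libraries and 48.3, 49.1, 52.9 and 54.1 CPM with DMSO. BRD3308 libraries lay above DMSO libraries in both constructs, and the DMSO libraries of P199L-ERG cells already lay among or above the BRD3308 libraries of BB cells. *Ifitm1* had a log2 response of 0.48 in P199L-ERG cells and 1.78 in BB cells, a difference of -1.30 ± 0.09 (SE, adjusted p = 1.34e-10). *Ifitm3* had a log2 response of 0.83 in P199L-ERG cells and 1.504 in BB cells, a difference of -0.68 ± 0.07 (SE, adjusted p = 4.07e-07). Both belong to a family of neighbouring, similar genes on chromosome 7, so reads may have been split between members.

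*Thy1* (ENSMUSG00000032011, chromosome 9, 44043384 to 44048579, plus strand) encodes the surface glycoprotein CD90. *Thy1* had 209, 193, 192 and 193 CPM in the BRD3308-treated P199L-ERG libraries and 31.3, 30.1, 28.2 and 26.0 CPM with DMSO, against 131, 126, 123 and 138 CPM in the BRD3308-treated BB libraries and 8.87, 8.19, 10.2 and 8.36 CPM with DMSO. The 4 groups did not overlap. *Thy1* had a log2 response of 2.76 in P199L-ERG cells and 3.86 in BB cells, a difference of -1.09 ± 0.10 (SE, adjusted p = 7.98e-08). *Pecam1* (ENSMUSG00000020717, chromosome 11, 106654217 to 106750628, minus strand), the adhesion molecule CD31 of endothelial and myeloid cells, had 359, 368, 379 and 396 CPM in the BRD3308-treated P199L-ERG libraries and 161, 162, 166 and 155 CPM with DMSO, against 289.9, 309, 316 and 323 and 81.5, 79.9, 82.8 and 91.4 CPM in the BB libraries. Again the groups did not overlap, and *Pecam1* had a log2 response of 1.22 in P199L-ERG cells and 1.88 in BB cells, a difference of -0.66 ± 0.06 (SE, adjusted p = 9.45e-08).

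*Ccr2* had 358, 362, 368 and 391 CPM in the BRD3308-treated P199L-ERG libraries and 85.8, 93.1, 82.4 and 82.2 CPM with DMSO, against 214, 233, 221 and 245 CPM in the BRD3308-treated BB libraries and 32.8, 35.5, 35.5 and 34.8 CPM with DMSO. *Ccr2* (ENSMUSG00000049103, chromosome 9, 124101950 to 124113557, plus strand), the receptor through which monocytes follow the chemokine Ccl2, rose in both constructs and the groups did not overlap. Its log2 response was 2.11 in P199L-ERG cells and 2.72 in BB cells, a difference of -0.61 ± 0.07 (adjusted p = 1.23e-06). *Ccr2*, *Thy1* and *S100a6* gained more CPM in P199L-ERG cells although their fold was smaller there: the gain of *Ccr2* was 284 CPM in P199L-ERG cells and 194 CPM in BB cells, and that of *Thy1* 168 CPM in P199L-ERG cells and 120.3 CPM in BB cells. *S100a6*, a calcium-binding protein, reached 35.3 ± 1.92 CPM with BRD3308 and 9.12 ± 2.43 CPM with DMSO in P199L-ERG cells, against 25.04 ± 2.06 and 2.73 ± 0.283 CPM in BB cells (mean ± SD, n = 4), with a difference in response of -1.23 ± 0.19 (adjusted p = 0.000457).

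**Figure D2:**
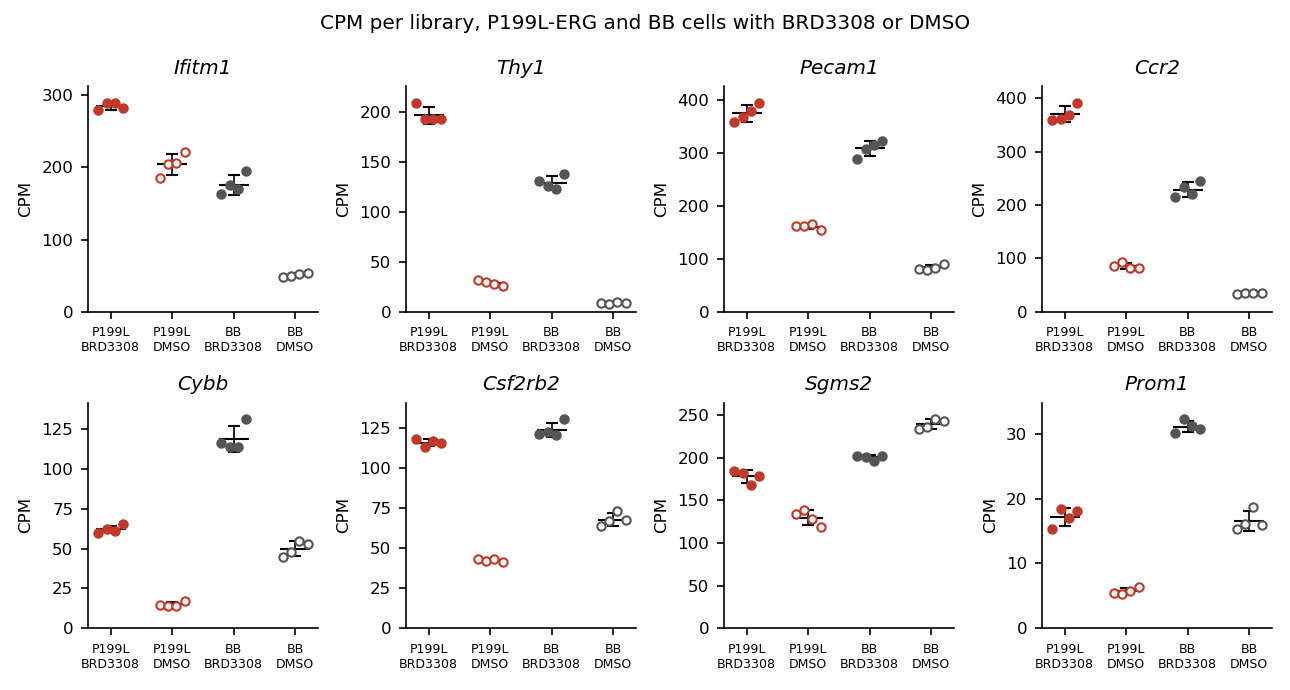
CPM (vertical axis, from 0) of 8 genes in each library, in P199L-ERG cells (red) and BB cells (grey) with BRD3308 (filled) or DMSO (open); bars are mean ± SD of 4 libraries. In the top row the P199L-ERG DMSO libraries lie above the BB DMSO libraries, and in the bottom row below them.

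*Itgb7*, the integrin beta 7 chain, had a log2 response of 3.65 in P199L-ERG cells and 4.47 in BB cells, a difference of -0.82 ± 0.18 (SE, adjusted p = 0.0187), a call lost without any 1 of BB DMSO replicates 2 and 4 or P199L-ERG DMSO replicate 1. *Itgb7* also lost it with limma-voom (adjusted p up to 0.0823 over all these fits). The metalloprotease gene *Adam8* differed by -0.78 ± 0.15 (adjusted p = 0.00367), and *Pld4*, an endolysosomal nuclease, by -0.69 ± 0.08 (adjusted p = 2.94e-06). *Nkg7*, a granule membrane protein of cytotoxic cells, averaged 337 ± 3.48 CPM with BRD3308 and 212 ± 20.3 CPM with DMSO in P199L-ERG cells, against 237 ± 7.37 and 102 ± 4.49 CPM in BB cells, a difference in response of -0.55 ± 0.08 (adjusted p = 0.000140). *Thy1* and *Nkg7* were the 2 of 4 tested T and NK lymphocyte genes that were called, both lower (against 0.594% of all genes tested). In these cells the T-cell receptor gene *Cd3e* stayed at or below 0.220 CPM. *Ccl9*, a chemokine of myeloid cells, differed by -0.39 ± 0.08 (adjusted p = 0.00410), and *Cyp4f18*, which inactivates leukotriene B4 in mouse neutrophils, by -0.77 ± 0.16 (adjusted p = 0.0107). *Tespa1*, a T-cell receptor signalling adaptor, differed by -0.82 ± 0.13 (adjusted p = 0.000515), and *Cnn3*, an actin-binding calponin, by -0.28 ± 0.06 (adjusted p = 0.0140). *Il2rg*, the common gamma chain of interleukin receptors, differed by -0.24 ± 0.06 (adjusted p = 0.0460) and *Rtn4r*, the Nogo receptor, by -0.77 ± 0.19 (adjusted p = 0.0414). The call of *Il2rg* was lost without any 1 of BB DMSO replicates 1, 2, 3 and 4, BB BRD3308 replicates 1, 2, 3 and 4, P199L-ERG DMSO replicates 2 and 3 or P199L-ERG BRD3308 replicates 2, 3 and 4. *Il2rg* also lost it with scaling by library size alone, low-count genes kept, the 16 libraries fitted alone or a length trend removed across all libraries (adjusted p up to 0.213 over all these fits). That of *Rtn4r* was lost without any 1 of BB DMSO replicates 2, 3 and 4, BB BRD3308 replicates 1, 2, 3 and 4, P199L-ERG DMSO replicates 1, 2 and 3 or P199L-ERG BRD3308 replicates 2, 3 and 4. *Rtn4r* also lost it with scaling by library size alone, the 16 libraries fitted alone, limma-voom or a length trend removed across all libraries (adjusted p up to 0.115 over all these fits). *Cdk2ap1*, a protein that binds the cell cycle kinase CDK2, differed by -0.83 ± 0.21 (adjusted p = 0.0431), a call lost without any 1 of BB DMSO replicates 1, 3 and 4, BB BRD3308 replicates 2, 3 and 4, P199L-ERG DMSO replicates 3 and 4 or P199L-ERG BRD3308 replicates 1, 2 and 3 (adjusted p up to 0.119).

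Among 36 gene lists, of functions and cell types, that of protease inhibitors had the most lower calls: 4 of the 15 serpins and stefins tested were lower (26.7%, against 0.594% of all genes tested), none of the 15 was higher at an unadjusted p below 0.05, and the list's median difference was -0.26, against -0.01 over all genes tested. The lists were chosen with earlier results of these data known, so this count is a description. Stefins block cysteine proteases such as cathepsins. *Stfa1* (ENSMUSG00000071562, chromosome 16, 36276951 to 36285373, plus strand) had 1415, 1606, 1641 and 1709.6 CPM in the BRD3308-treated P199L-ERG libraries and 1129, 1262, 1445 and 1858 CPM with DMSO, against 743, 830.4, 914 and 1043 and 393, 409, 497 and 501 CPM in the BB libraries. The P199L-ERG groups overlapped, with DMSO replicate 4 the highest of all, while the BB groups did not. *Stfa1* had a log2 response of 0.16 in P199L-ERG cells and 0.97 in BB cells, a difference of -0.81 ± 0.17 (SE, adjusted p = 0.0120). Its neighbour *BC100530* averaged 582 ± 47.7 and 476 ± 127 CPM in P199L-ERG cells with BRD3308 and DMSO, against 126 ± 21.9 and 49.1 ± 9.20 CPM in BB cells, with a difference in response of -1.07 ± 0.21 (adjusted p = 0.00568). The stefin A genes are near-identical copies in a row on chromosome 16, so the reads of single copies are uncertain. *Serpinb10* differed by -0.52 ± 0.08 (adjusted p = 0.000625), and its exons overlap *Serpinb2* on the same strand. *Serpinf1*, a secreted serpin without inhibitor activity, differed by -0.26 ± 0.06 (adjusted p = 0.0435), a call lost without any 1 of BB DMSO replicates 1, 2 and 3, BB BRD3308 replicates 1, 3 and 4 or P199L-ERG BRD3308 replicates 2, 3 and 4. *Serpinf1* also lost it with scaling by library size alone, the 16 libraries fitted alone or a length trend removed across all libraries (adjusted p up to 0.117 over all these fits).

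Among regulators, *Cdkn1a* (ENSMUSG00000023067, chromosome 17, 29090976 to 29100727, plus strand), the cell cycle inhibitor p21, had 129.7, 128, 120.5 and 109 CPM in the BRD3308-treated P199L-ERG libraries and 73.9, 73.2, 70.6 and 70.2 CPM with DMSO, against 139, 148, 133 and 134 and 58.7, 57.2, 59.5 and 54.2 CPM in the BB libraries. P199L-ERG cells were above BB cells in DMSO and below them with BRD3308, without overlap. *Cdkn1a* had a log2 response of 0.76 in P199L-ERG cells and 1.27 in BB cells, a difference of -0.51 ± 0.08 (SE, adjusted p = 0.000572). It was the only 1 of 5 cyclin-dependent kinase inhibitor genes called, where 1.05% of all genes tested were called. *Gata2*, a transcription factor of stem, mast and megakaryocyte progenitor cells, averaged 20.9 ± 1.98 and 16.4 ± 0.844 CPM in P199L-ERG cells with BRD3308 and DMSO, against 13.7 ± 1.38 and 7.24 ± 0.462 CPM in BB cells. It rose in both constructs, with a difference of -0.57 ± 0.14 (adjusted p = 0.0367). That call was lost without any 1 of BB DMSO replicates 1, 2 and 3, BB BRD3308 replicates 3 and 4, P199L-ERG DMSO replicates 1 and 2 or P199L-ERG BRD3308 replicates 1, 2 and 3. *Gata2* also lost it with scaling by library size alone or limma-voom (adjusted p up to 0.104 over all these fits). *Erg* itself had 121, 112, 122 and 118 CPM in the BRD3308-treated P199L-ERG libraries and 101, 98.1, 97.2 and 107 CPM with DMSO, against 117, 114, 105 and 109 and 98.8, 94.3, 92.5 and 89.2 CPM in the BB libraries. The construct groups overlapped in each treatment, and reads of the human ERG transgene cannot be told apart in counts per mouse gene, so *Erg* did not check the labels. The response of *Erg* differed by -0.02 ± 0.06 (adjusted p = 0.937), that of *Hdac3*, the target of the drug, by -0.05 ± 0.06 (adjusted p = 0.770) and that of *Ncor1*, its co-repressor partner, by 0.15 ± 0.08 (adjusted p = 0.402), none past the test.

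*Cybb* and *Mpeg1* were among the genes that rose more, as a ratio, in P199L-ERG cells. *Cybb* (ENSMUSG00000015340, chromosome X, 9435252 to 9487771, minus strand) encodes the membrane subunit of the phagocyte NADPH oxidase. *Cybb* had 59.5, 62.2, 61.3 and 65.2 CPM in the BRD3308-treated P199L-ERG libraries and 14.8, 14.1, 13.9 and 17.3 CPM with DMSO, against 117, 114, 114 and 131 CPM in the BRD3308-treated BB libraries and 44.6, 47.9, 54.6 and 52.7 CPM with DMSO. The groups did not overlap, and P199L-ERG libraries were below the BB libraries of the same treatment. *Cybb* had a log2 response of 2.05 in P199L-ERG cells and 1.25 in BB cells, a difference of 0.80 ± 0.10 (SE, adjusted p = 2.47e-05). Its gain was 47.0 CPM in P199L-ERG cells and 68.9 CPM in BB cells. It was the only 1 of 7 NADPH oxidase genes called, where 1.05% of all genes tested were called.

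The same order of levels held for 3 of the 15 monocyte and macrophage genes tested that had a higher response (against 0.455% of all genes tested). *Mpeg1*, a pore-forming protein of phagocytes, had 364, 356, 375 and 395 CPM in the BRD3308-treated P199L-ERG libraries and 98.1, 96.8, 96.3 and 88.7 CPM with DMSO, against 449, 476, 463 and 528 and 162, 164, 174 and 165 CPM in the BB libraries. *Mpeg1* had a log2 response of 1.97 in P199L-ERG cells and 1.53 in BB cells, a difference of 0.44 ± 0.07 (SE, adjusted p = 0.000409). *Adgre1*, which encodes the macrophage antigen F4/80, differed by 0.46 ± 0.07 (adjusted p = 0.000395) and *F13a1*, the A chain of coagulation factor XIII, by 0.35 ± 0.05 (adjusted p = 0.000202). None of these groups overlapped. In CPM these genes gained less in P199L-ERG cells: the gain of *Mpeg1* was 277 CPM in P199L-ERG cells and 313 CPM in BB cells, and that of *F13a1* 384 CPM in P199L-ERG cells and 473 CPM in BB cells. *Ccr2*, described above, was the only member called lower by edgeR. The list was mixed in direction: 5 of the 15 were higher and 4 lower at an unadjusted p below 0.05 in edgeR. These were 33.3% and 26.7%, against 5.66% and 7.11% of all genes tested. The list's median difference was 0.15, and DESeq2 and limma-voom each called 5 members. The 4 defining monocyte and macrophage markers summed to 119 to 129 CPM with BRD3308 and 46.3 to 54.4 CPM with DMSO in P199L-ERG cells, against 158 to 172 and 80.6 to 89.4 CPM in BB cells, with *C1qa* at 0 in all 16. Their part in the result was not tested, and in bulk RNA fewer cells of a type and less RNA per cell cannot be told apart.

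*Thbs1* (ENSMUSG00000040152, chromosome 2, 118111876 to 118127133, plus strand), the matrix protein thrombospondin 1, was among the most abundant RNAs of the cells. It averaged 6938 ± 385 and 1886 ± 143 CPM in P199L-ERG cells with BRD3308 and DMSO, against 11528 ± 438 and 4489 ± 369 CPM in BB cells. *Thbs1* had a log2 response of 1.88 in P199L-ERG cells and 1.36 in BB cells, a difference of 0.52 ± 0.08 (SE, adjusted p = 0.000457). Its gain was 5052 CPM in P199L-ERG cells and 7040 CPM in BB cells. The exons of *Gm29233* overlap those of *Thbs1* on the opposite strand, and *Gm29233* differed by 0.96 ± 0.22 (adjusted p = 0.0265), a call lost without any 1 of BB DMSO replicates 3 and 4, BB BRD3308 replicate 2, P199L-ERG DMSO replicates 1 and 4 or P199L-ERG BRD3308 replicates 2 and 4. *Gm29233* also lost it with both DMSO replicates 4 of the ERG constructs left out together (adjusted p up to 0.0702 over all these fits). Whether reads were counted by strand is not given in the sources used here, so those of *Gm29233* and *Thbs1* cannot be told apart. The same holds for *BC100530*, *Galnt6*, *Adam8*, *Cyp4f18*, *Dnajb9*, *Cdkn1a*, *Tmem39a*, *Cnn3*, *Nin*, *F13a1*, *Prom1*, *Cacna2d2*, *Ldlrad4*, *Myo18b* and *Ncor1*, each overlapped by another gene on the opposite strand.

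*Csf2rb2* (ENSMUSG00000071714, chromosome 15, 78282507 to 78305721, minus strand), the beta chain of the interleukin 3 receptor that is particular to mice, was closer between the constructs with BRD3308 than with DMSO. *Csf2rb2* had 118, 113, 117 and 116 CPM in the BRD3308-treated P199L-ERG libraries and 43.0, 42.2, 43.1 and 41.1 CPM with DMSO, against 121, 122, 121 and 130.4 CPM in the BRD3308-treated BB libraries and 63.5, 66.8, 73.0 and 67.8 CPM with DMSO. P199L-ERG libraries lay below BB libraries in both treatments, without overlap. *Csf2rb2* had a log2 response of 1.45 in P199L-ERG cells and 0.87 in BB cells, a difference of 0.58 ± 0.06 (SE, adjusted p = 1.23e-06), but it is a close copy of *Csf2rb*, which may share its reads. *Prom1*, the stem cell antigen CD133, had a log2 response of 1.59 in P199L-ERG cells and 0.91 in BB cells, a difference of 0.68 ± 0.12 (SE, adjusted p = 0.00193). The detoxifying enzyme gene *Mgst1* differed by 0.85 ± 0.12 (adjusted p = 0.000202), the unconventional myosin gene *Myo18b* by 1.11 ± 0.14 (adjusted p = 1.44e-05) and the phospholipase D gene *Pld1* by 0.92 ± 0.16 (adjusted p = 0.00119). *Abca13*, a lipid transporter, differed by 0.76 ± 0.11 (adjusted p = 0.000140), *Acpp*, an acid phosphatase, by 0.69 ± 0.11 (adjusted p = 0.000512), and *Slc22a15*, a membrane transporter, by 0.70 ± 0.12 (adjusted p = 0.00151). *Ldlrad4*, an inhibitor of TGF-beta signalling, differed by 0.95 ± 0.19 (adjusted p = 0.00791). *Cd80*, a costimulatory ligand, differed by 0.66 ± 0.16 (adjusted p = 0.0409) and *Cacna2d2*, a calcium channel subunit, by 0.78 ± 0.19 (adjusted p = 0.0378). The call of *Cd80* was lost without any 1 of BB DMSO replicates 1, 2, 3 and 4, BB BRD3308 replicates 2 and 3, P199L-ERG DMSO replicates 1, 2 and 3 or P199L-ERG BRD3308 replicates 1, 3 and 4 (adjusted p up to 0.104). That of *Cacna2d2* was lost without any 1 of BB DMSO replicates 2, 3 and 4, BB BRD3308 replicates 1, 2 and 4, P199L-ERG DMSO replicates 1, 2 and 3 or P199L-ERG BRD3308 replicates 3 and 4. *Cacna2d2* also lost it with a length trend removed across all libraries (adjusted p up to 0.122 over all these fits).

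A higher response was a smaller fall for *Ighm*. *Ighm*, the constant region of the immunoglobulin mu chain, had 4.19, 3.74, 4.77 and 3.31 CPM in the BRD3308-treated P199L-ERG libraries and 9.78, 9.41, 10.3 and 9.34 CPM with DMSO, against 14.8, 14.6, 14.3 and 15.2 and 55.8, 57.8, 57.2 and 63.8 CPM in the BB libraries. It fell in both constructs without overlap, and both P199L-ERG groups lay below both BB groups. *Ighm* had a log2 response of -1.28 in P199L-ERG cells and -1.99 in BB cells, a difference of 0.72 ± 0.14 (SE, adjusted p = 0.00376). *Igll1*, a surrogate light chain of B-cell precursors, rose in both constructs and differed by 0.58 ± 0.09 (adjusted p = 0.000512). The other 5 B lymphocyte genes tested had differences of -0.70 to -0.10, none called and 2 at an unadjusted p below 0.05 (7.11% of all genes tested were lower at that cut). The median over all 7 was -0.20. Of the B-cell markers, *Cd79a* was at 1.74 to 18.2 CPM while *Pax5* and *Ms4a1* did not exceed 0.0788 CPM.

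In 16 genes the responses passed the test in opposite directions. *Sgms2* (ENSMUSG00000050931, chromosome 3, 131318985 to 131491411, minus strand), sphingomyelin synthase 2, had the smallest p of them. *Sgms2* had 185, 182, 168 and 178 CPM in the BRD3308-treated P199L-ERG libraries and 134, 138, 128 and 119 CPM with DMSO, against 202, 201, 197 and 202 CPM in the BRD3308-treated BB libraries and 234, 236, 245 and 243 CPM with DMSO. BRD3308 libraries were above DMSO libraries in P199L-ERG cells and below them in BB cells, without overlap in either. *Sgms2* had a log2 response of 0.46 in P199L-ERG cells and -0.26 in BB cells, a difference of 0.71 ± 0.06 (SE, adjusted p = 2.80e-09). Among the named genes, *Lpar1*, a lysophosphatidic acid receptor, differed by 1.02 ± 0.22 (adjusted p = 0.0140), *Itgb2l*, a beta 2 integrin-like chain, by 0.52 ± 0.11 (adjusted p = 0.0141), *Itih5*, a hyaluronan-binding secreted protein, by 0.35 ± 0.08 (adjusted p = 0.0163) and *Nin*, the centrosome protein ninein, by 0.23 ± 0.05 (adjusted p = 0.00791). All 4 rose in P199L-ERG cells and fell in BB cells. The call of *Itih5* was lost without P199L-ERG BRD3308 replicate 4 and also with the 16 libraries fitted alone (adjusted p up to 0.0638).

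The reverse pattern, a fall in P199L-ERG cells and a rise in BB cells, was led by *Galnt6*, an enzyme that starts O-linked glycosylation. *Galnt6* had 7.73, 7.03, 8.04 and 7.77 CPM in the BRD3308-treated P199L-ERG libraries and 11.6, 10.2, 9.12 and 12.8 CPM with DMSO, against 11.2, 10.4, 10.01 and 10.1 CPM in the BRD3308-treated BB libraries and 9.65, 7.17, 7.39 and 6.07 CPM with DMSO. BRD3308 and DMSO libraries did not overlap in either construct, and *Galnt6* had a log2 response of -0.51 in P199L-ERG cells and 0.46 in BB cells, a difference of -0.97 ± 0.15 (SE, adjusted p = 0.000409). A second transcript, *Galnt6os*, overlaps it on the opposite strand. *Dapp1*, an adaptor that binds phosphoinositides, differed by -0.27 ± 0.06 (adjusted p = 0.0156), a call lost without any 1 of BB DMSO replicate 3, BB BRD3308 replicate 1 or P199L-ERG BRD3308 replicate 3. *Dapp1* also lost it with scaling by library size alone, low-count genes kept or the 16 libraries fitted alone (adjusted p up to 0.0637 over all these fits). *Nfxl1* differed by -0.44 ± 0.08 (adjusted p = 0.00324) and *Tmem39a*, a membrane protein of the endoplasmic reticulum (ER), by -0.30 ± 0.06 (adjusted p = 0.00791). *Dnajb9*, described next, was also of this kind.

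*Dnajb9* and *Herpud1* are both genes of the ER stress response. When unfolded proteins build up in the ER, the sensors IRE1, PERK and ATF6 raise chaperones and degradation factors. *Dnajb9* encodes ERdj4, an ER co-chaperone of the Hsp70 protein BiP, and *Herpud1* a membrane protein of ER-associated degradation. ATF6 acts with NF-Y at the ER stress response element (ERSE), here CCAAT and CCACG with 9 bases of any kind between them, and at a shorter element, ERSE-II, here ATTGG and CCACG with 1 base between them. *Herpud1* and the BiP gene *Hspa5* are shown for these elements, 120 bases up to the base before the start site, 5′ to 3′ on the gene's strand, with the element in capitals, from RefSeq windows on GRCm38.p6 (chr8:94386309-94386428, + strand, for *Herpud1*, and chr2:34771970-34772089, + strand, for *Hspa5*).
Herpud1: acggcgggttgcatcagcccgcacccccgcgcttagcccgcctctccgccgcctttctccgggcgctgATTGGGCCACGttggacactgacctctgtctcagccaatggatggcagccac
Hspa5: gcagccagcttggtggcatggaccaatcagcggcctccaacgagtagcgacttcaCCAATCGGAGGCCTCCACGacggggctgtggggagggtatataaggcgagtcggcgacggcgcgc
On either strand, ERSE-II was found in 12 and ERSE in 39 of 32851 windows from 250 bases before to 50 after a start site (0.0365% and 0.119%). In the 34 windows of the ER genes listed below, 2 held ERSE-II (5.88%) and 8 held ERSE (23.5%). Over the windows of all genes tested these shares were 0.0591% and 0.143%. All 8 windows with ERSE were of genes not called for a difference in response. Of the 76 windows of genes with a lower response, 1 held ERSE-II, that of *Herpud1*, and 0 held ERSE. Of the 62 windows of genes with a higher response, 0 held either element. The shares were not tested. The window of *Dnajb9* held neither. A match describes the letters and does not show that the element is used in these cells.

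*Herpud1* had 155, 171, 168 and 171 CPM in the BRD3308-treated P199L-ERG libraries and 181, 186, 191 and 165 CPM with DMSO, against 197, 219, 231 and 249.8 CPM in the BRD3308-treated BB libraries and 152, 167, 174 and 182 CPM with DMSO. The BRD3308 libraries of BB cells lay above all others, and the remaining 3 groups overlapped each other. *Herpud1* (ENSMUSG00000031770, chromosome 8, 94386438 to 94395377, plus strand) rose in BB cells and its response in P199L-ERG cells did not pass (adjusted p = 0.0959), with a log2 response of -0.12 in P199L-ERG cells and 0.41 in BB cells, a difference of -0.53 ± 0.08 (SE, adjusted p = 0.000457). *Dnajb9* had 56.9, 53.4, 50.8 and 47.5 CPM in the BRD3308-treated P199L-ERG libraries and 63.5, 61.6, 61.7 and 56.2 CPM with DMSO, against 61.3, 60.8, 61.6 and 60.3 CPM in the BRD3308-treated BB libraries and 46.3, 48.4, 45.7 and 52.7 CPM with DMSO. The BB groups did not overlap, whereas those of P199L-ERG cells overlapped by 1 value on each side. *Dnajb9* (ENSMUSG00000014905, chromosome 12, 44205559 to 44210326, minus strand) had a log2 response of -0.22 in P199L-ERG cells and 0.34 in BB cells, a difference of -0.56 ± 0.09 (SE, adjusted p = 0.000644). Neither call was lost in any of the 27 alternative fits.

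**Figure D3:**
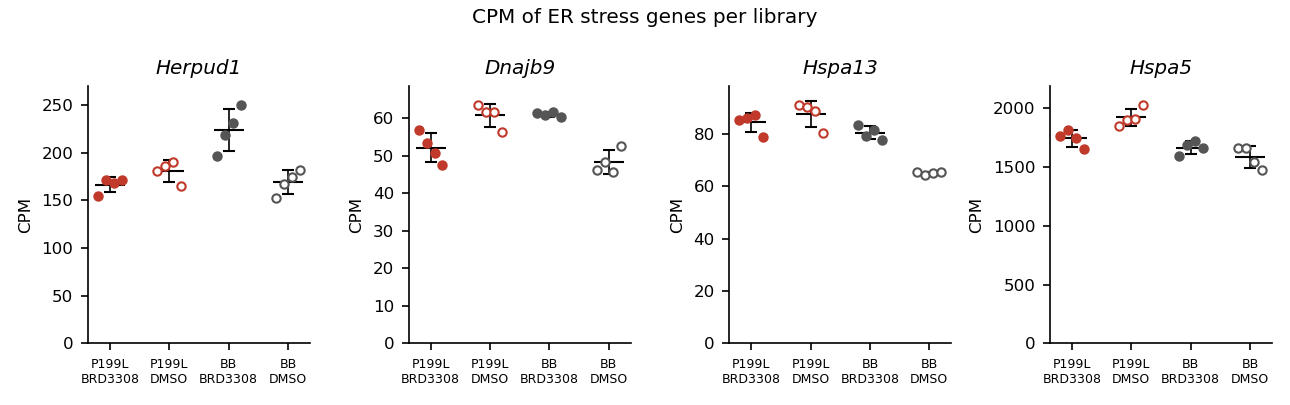
CPM (vertical axis, from 0) of 4 ER stress genes per library, in P199L-ERG cells (red) and BB cells (grey) with BRD3308 (filled) or DMSO (open); bars are mean ± SD of 4 libraries. The BRD3308 libraries of *Herpud1*, *Dnajb9* and *Hspa13* lie above the DMSO libraries in BB cells and overlap them in P199L-ERG cells, while the difference in response of *Hspa5* was not called.

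A list of 38 unfolded protein response and ER secretory genes was drawn up after these values had been seen, and some members were put in with their calls known, so its count is a description. All 38 were tested, 6 had a lower response in P199L-ERG cells and none a higher one, where 0.594% of all genes tested were lower (1 higher and 15 lower at an unadjusted p below 0.05 in edgeR, or 42.1%, against 12.8% of all genes; DESeq2 called 8 and limma-voom 7). The median difference was -0.12, against -0.01 over all genes tested. With BRD3308, 9 of the 38 rose and 12 fell in BB cells (median log2 response -0.001), against 4 and 22 in P199L-ERG cells (median -0.16). Over all genes tested, 45.9% were called in BB cells and 48.5% in P199L-ERG cells, rises and falls together. Besides *Herpud1* and *Dnajb9*, the called members were *Hspa13*, an ER Hsp70-like ATPase (-0.36 ± 0.08, adjusted p = 0.0140), *Fkbp11*, a prolyl isomerase (-0.39 ± 0.10, adjusted p = 0.0431), *Srprb*, a subunit of the signal recognition particle receptor (-0.31 ± 0.07, adjusted p = 0.0198), and *Ssr3*, of the translocon-associated complex (-0.17 ± 0.04, adjusted p = 0.0436). The call of *Hspa13* was lost without any 1 of BB BRD3308 replicate 3 or P199L-ERG BRD3308 replicate 4 (adjusted p up to 0.0638), and that of *Srprb* without any 1 of BB DMSO replicate 3, BB BRD3308 replicates 1 and 2 or P199L-ERG BRD3308 replicate 4. *Srprb* also lost it with scaling by library size alone, low-count genes kept or the 16 libraries fitted alone (adjusted p up to 0.0800 over all these fits). Those of *Fkbp11* and *Ssr3* were lost in 11 and 13 of the 16 fits with a library left out. *Fkbp11* also lost it with the 16 libraries fitted alone (adjusted p up to 0.112 over all its fits). *Ssr3* also lost it with low-count genes kept, the 16 libraries fitted alone or a length trend removed across all libraries (adjusted p up to 0.291 over all its fits). *Hspa5* differed by -0.21 ± 0.06 (adjusted p = 0.0729). The regulators *Xbp1* (-0.06 ± 0.06, adjusted p = 0.737), *Atf4* (-0.26 ± 0.13, adjusted p = 0.414) and *Ddit3* (-0.50 ± 0.15, adjusted p = 0.109) were not called.

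WT-ERG cells, which carry unmutated ERG, gave 8 further libraries with the same treatments. The WT-ERG against BB difference uses the same BB libraries as the P199L-ERG difference, so the values stand side by side and are not independent. For *Ifitm1* the P199L-ERG difference was -1.30 ± 0.09 and the WT-ERG difference -1.58 ± 0.09, for *Thy1* -1.09 ± 0.10 and -1.33 ± 0.10, and for *Pecam1* -0.66 ± 0.06 and -0.44 ± 0.06. For *Cybb* they were 0.80 ± 0.10 and 0.94 ± 0.10, and for *Sgms2* 0.71 ± 0.06 and 0.54 ± 0.06. The direct difference between P199L-ERG and WT-ERG in these 5 genes was 0.28 ± 0.08, 0.24 ± 0.08, -0.22 ± 0.06, -0.15 ± 0.11 and 0.17 ± 0.06, none past the test.

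**Figure D4:**
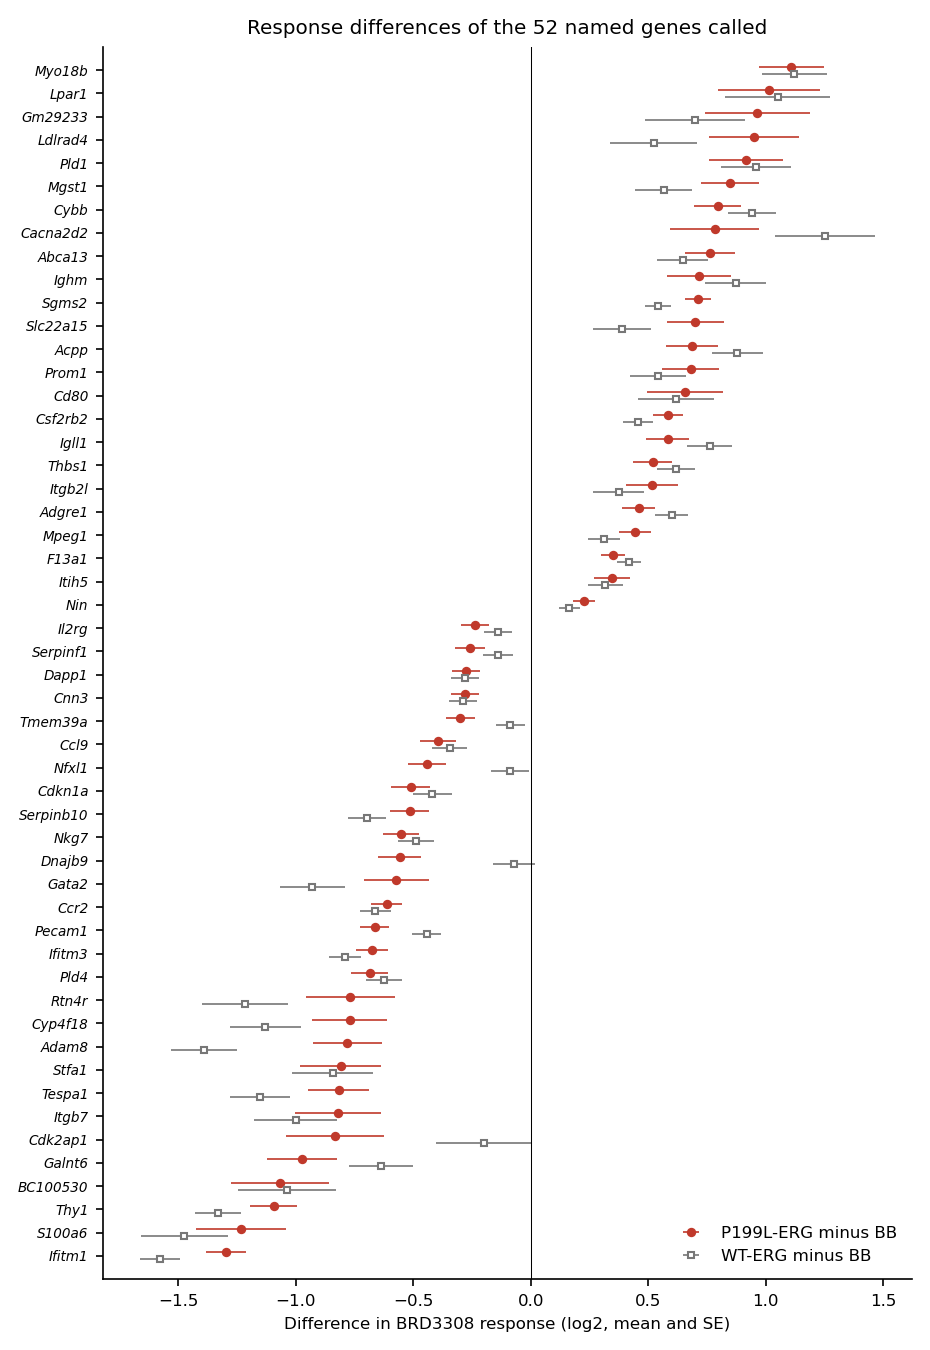
Difference in log2 BRD3308 response (horizontal axis, mean and SE) of the 52 named genes that were called, P199L-ERG minus BB (red circles) and WT-ERG minus BB (open squares), which share the BB libraries. *Ifitm1* has -1.30 for P199L-ERG and -1.58 for WT-ERG, and *Dnajb9* has -0.56 for P199L-ERG and -0.07 for WT-ERG.

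Tested directly, the response differed between P199L-ERG and WT-ERG cells for 6 genes (0.0463% of those tested; 3 higher and 3 lower, 0.0231% each), with 764 at an unadjusted p below 0.05. *Herpud1* and *Dnajb9* were 2 of the 3 that were lower in P199L-ERG cells, with log2 differences of -0.49 ± 0.08 (adjusted p = 0.0153) and -0.49 ± 0.09 (adjusted p = 0.0332). In WT-ERG cells *Herpud1* had 199.7, 217, 209 and 212 CPM with BRD3308 and 160.4, 165, 160.5 and 163 CPM with DMSO, and *Dnajb9* 70.8, 70.2, 64.9 and 55.4 and 55.5, 56.6, 53.8 and 51.5 CPM. The response of *Herpud1* was -0.12 in P199L-ERG cells, 0.37 in WT-ERG cells and 0.41 in BB cells. That of *Dnajb9* was -0.22, 0.27 and 0.34 in the same order. These calls were less firm than those against BB: of 24 fits that left out 1 library, WT-ERG included, 8 lost the call of *Herpud1* and 17 that of *Dnajb9*. The call of *Herpud1* was lost without any 1 of P199L-ERG DMSO replicate 3, P199L-ERG BRD3308 replicates 1, 2 and 3, WT-ERG DMSO replicate 2 or WT-ERG BRD3308 replicates 1, 2 and 3 (adjusted p up to 0.0819). That of *Dnajb9* was lost without any 1 of BB BRD3308 replicates 1, 2, 3 and 4, P199L-ERG DMSO replicates 1, 2 and 3, P199L-ERG BRD3308 replicates 1, 2, 3 and 4, WT-ERG DMSO replicates 2, 3 and 4 or WT-ERG BRD3308 replicates 1, 2 and 3 (adjusted p up to 0.160). No gene was called without any 1 of P199L-ERG BRD3308 replicates 1, 2 and 3, WT-ERG DMSO replicate 2 or WT-ERG BRD3308 replicates 1 and 3.

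*Osbpl3*, an oxysterol-binding protein, had a log2 response of 0.51 in P199L-ERG cells, 0.85 in WT-ERG cells and 0.27 in BB cells, so it was higher than in BB cells and lower than in WT-ERG cells. *Krt80*, a keratin, had 1.97, 1.52 and 1.96 in the same order. *Tspoap1*, a scaffold protein, had 1.31, 0.85 and 1.15. *Krt80* and *Tspoap1* were not called between P199L-ERG and BB cells (adjusted p = 0.980 and 0.414).

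Of 36 gene lists, 21 had no member called, where 1.05% of all genes tested were called. Of their 366 members tested, 62 (16.9%) had an unadjusted p below 0.05 in edgeR, against 1656 of 12963 (12.8%) over all genes, and DESeq2 called 4 and limma-voom 0. Mature neutrophil genes had a median log2 response of 0.62 in P199L-ERG cells and 0.63 in BB cells (22 genes), and interferon-stimulated genes 0.92 and 1.01 (21 genes). Genes of cholesterol synthesis and uptake had -0.38 and -0.35 (24 genes), those of DNA replication -0.16 and -0.17 (38 genes), and the NCoR-HDAC3 complex with the class I histone deacetylases 0.01 and -0.07 (14 genes). Histone genes had 0.03 and 0.20 (17 genes), with 6 lower and 0 higher at an unadjusted p below 0.05 (35.3% lower, against 7.11% of all genes). Of the 22 neutrophil genes, 4 were higher and 4 lower at that cut (18.2% each, against 5.66% and 7.11%), and DESeq2 called 2. Over the lists without a call this share, in either direction, ran from 0% (erythroid) to 50% (dendritic cell, 4 genes). The other lists without a call were primary granule, myeloid transcription factor, AP-1, megakaryocyte, erythroid, dendritic cell, pattern recognition, Fc receptor, Hox, BCL2 family, mitosis, cholesterol efflux, glycolysis, lysosome and eicosanoid genes. In the 15 lists with calls, counts were 1 to 4 members.

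**Figure D5:**
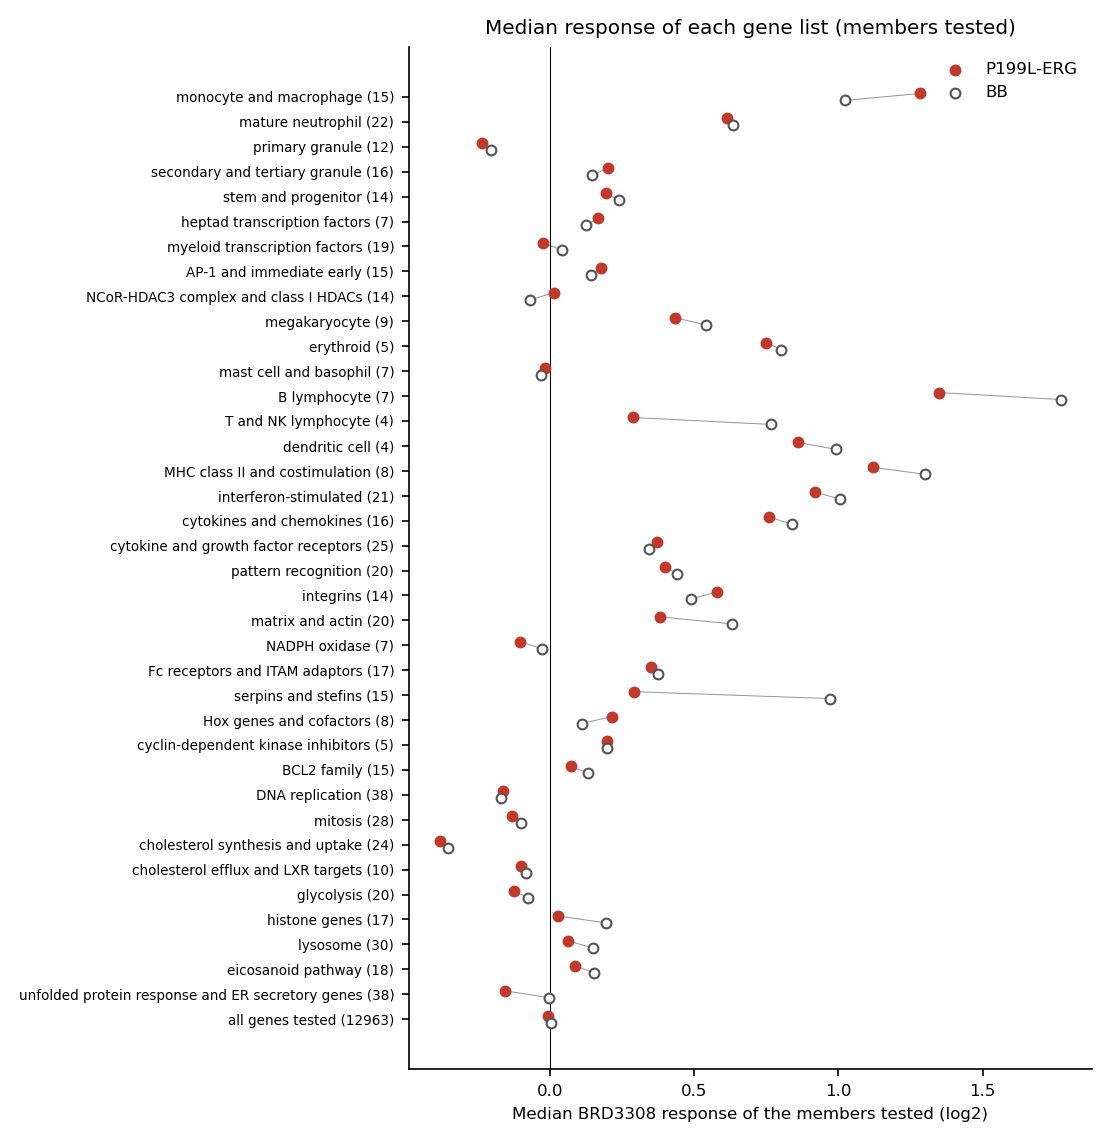
Median log2 BRD3308 response (horizontal axis) of the tested members of each gene list, in P199L-ERG cells (filled red) and BB cells (open), with the number of members tested in brackets; the last line gives all genes tested. Serpins and stefins, of which 4 of 15 were called, had 0.29 in P199L-ERG cells and 0.97 in BB cells.

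Promoter windows were available for 45 of the 59 higher and 58 of the 77 lower genes (62 and 76 windows). The ETS motif CCGGAAGT, searched on both strands, was in 1 window of each set (1.61% and 1.32%), against 8.49% of the windows of all genes tested and 3.89% of all windows. The GATA motif AGATAA was in 4.84% of the windows of higher genes and 9.21% of those of lower genes, against 6.58% for genes tested. These shares were not tested.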

How the data were processed

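RNA was sequenced from 24 libraries of ER-Hoxb8 cells. The authors mapped reads of at least 30 bp to GRCm38 with STAR, per the paper's methods, and deposited raw counts per gene per sample. Cutadapt, HTSeq and DESeq2 stand in the submitters' processing notes with no version. For annotation and strand setting: not given in the sources used here. Groups came from the labels. Counts were filtered with filterByExpr, scaled by TMM factors and fitted with edgeR 4.0.16 (R 4.3.3), using the quasi-likelihood test in a single design of 6 group means. All tests were two-sided, with Benjamini-Hochberg adjustment across the 12963 genes that passed. The SE is the absolute log2 value divided by the square root of F. A gene was called at an adjusted p below 0.05. The members and gene lists were chosen with earlier results of these data known.

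Named genes were, among those called with an average log2 CPM reaching 2, the 12 most positive and 12 most negative differences and the 10 smallest p; up to 4 called genes of smallest p per list and up to 10 with opposite responses, at any level; and *Erg*, *Gata2*, *Hdac3* and *Ncor1*. The ER genes other than *Dnajb9*, and the genes that differed from WT-ERG, were named after their values were seen, and 1 that differed from WT-ERG is counted but not reported here. Positions are from GENCODE M21 on GRCm38, which matched 53706 of 53801 genes. On simulated data (12891 genes) the model recovered 8, 35, 46 and 47 of 50 differences of 1.2-, 1.5-, 2- and 4-fold, with 13 false among 149 calls. Alternatives were other scalings and filters, DESeq2 1.42.0, limma-voom (limma 3.58.1), fits without single libraries, a replicate block and, added after seeing the data, removal of a trend on exon length and omission of WT-ERG libraries. Replicate libraries differed by more than sampling noise. P values rest on the spread between libraries within a group, pooled over the 6 groups, with no term for the experiment.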

Additional observations from a re-analysis of the deposited data

Results flagged for a closer look

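Among 136 groups of 4 libraries (34 genes in 4 groups), 7 held a library set apart from the other 3, by a gap past Dixon's 95% critical value for the group's range; chance gives about 1 in 20 groups. They were *Thy1* in P199L-ERG BRD3308 replicate 1 (209 CPM, the highest), *F13a1* in P199L-ERG DMSO replicate 4 (242 CPM, the lowest) and in BB DMSO replicate 3 (536 CPM, the highest), and *Hdac3* in P199L-ERG DMSO replicate 4 (110.0 CPM, the highest). The others were *Csf2rb2* (130.4 CPM) and *Mgst1* (92.0 CPM), both highest in BB BRD3308 replicate 4, and *Myo18b*, lowest in P199L-ERG DMSO replicate 2 (4.08 CPM). Apart from *Hdac3*, which was not called, no call of these genes was lost when any 1 library was left out.

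Differences in response between constructs were found by the test of the difference itself, for 59 genes higher and 77 lower in P199L-ERG than in BB cells. Between P199L-ERG and WT-ERG cells 6 genes differed, among them *Dnajb9* (-0.49), *Herpud1* (-0.49) and *Osbpl3* (-0.34), lower in P199L-ERG cells on the log2 scale, and *Tspoap1* (0.46) and *Krt80* (0.46), higher. Leaving out single libraries took away the call of *Osbpl3* in 6 of 24 fits, of *Tspoap1* in 12 and of *Krt80* in 19.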

How the results depend on the processing

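The direction of all 52 called named genes held in every alternative, and 39 kept their call in all of them; the 13 that lost it in some are named with their values above or here (*Cnn3* only without a filter on low counts). RLE size factors called 138 genes, library size alone 128 (67 higher, 61 lower), a filter of over 30 reads 138, the 16 libraries alone 96, limma-voom 133 and DESeq2 188, against 136. Without a filter the count was 300 (159 higher, 141 lower), and 21 against WT-ERG. At an adjusted p below 0.01 it was 61 (26 and 35), with 0 against WT-ERG, and beyond 1 log2 11 (5 and 6), with 0. Without both DMSO replicates 4 of the ERG constructs, 203 genes were called, 92 of them higher, and 13 against WT-ERG. A length trend removed within groups gave 368 (152 and 216) and 14 against WT-ERG, and one removed across all libraries 12 against WT-ERG; DESeq2 gave 17. The causes were not tested.

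Leaving out single libraries gave 79 to 176 genes (34 to 71 higher, 45 to 105 lower) and 0 to 8 against WT-ERG. Of genes that rose it left 2892 to 3175 in P199L-ERG and 2807 to 3270 in BB cells, and of genes that fell 2848 to 3179 and 2620 to 3312.

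With the replicate number as a block, 467 genes were called (213 higher, 254 lower), the 136 among them, and 28 against WT-ERG. The labels do not say that a number pairs libraries: 12 of 24 same-numbered pairs had deviations correlated above 0.1 (0.0167 to 0.284), and 12 of 16 libraries correlated best with their own number. The simulation recovered 8 of 50 differences of 1.2-fold, so small differences were mostly not detectable with 4 libraries a group.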

Other observations

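Other called genes, picked here after their values were seen, included secreted proteins and metabolic enzymes. *Spp1* (osteopontin), *Lgals1* (galectin 1) and *Lgals3bp*, a galectin-binding glycoprotein, rose in BB cells by 1.11, 0.53 and 0.50 log2, and their response was lower in P199L-ERG cells, with log2 differences of -0.44 ± 0.07, -0.43 ± 0.09 and -0.45 ± 0.08 (SE). *Mmp14*, a membrane-bound matrix metalloprotease, differed by -0.38 ± 0.08, and *Bcat1*, which transaminates branched-chain amino acids, by -0.58 ± 0.08. The complement gene *C3* (0.39 ± 0.10) and the insulin signalling genes *Irs2* (0.35 ± 0.08) and *Igf1r* (0.24 ± 0.06) had a higher response in P199L-ERG cells, as did the phosphorylase kinase subunits *Phka2* (0.22 ± 0.05) and *Phkb* (0.21 ± 0.04), whose enzyme activates glycogen phosphorylase. *Etv4*, an ETS factor like ERG, averaged 4.06 ± 0.553 and 5.99 ± 0.518 CPM in P199L-ERG cells with BRD3308 and DMSO, against 2.59 ± 0.610 and 1.94 ± 0.0770 CPM in BB cells (SD, n = 4), and differed by -0.97 ± 0.23 (adjusted p = 0.0308). The most negative difference among the called genes, -2.30 ± 0.55 for *C430042M11Rik*, was of a gene with a mean log2 CPM of -0.97. These calls were not followed through the alternative settings gene by gene.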
